A study of Arabidopsis thaliana with 2 samples.

Results

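The SNF2 chromatin remodelling ATPases described here are 30 named loci of *Arabidopsis thaliana*. They were chosen by locus from the SWI/SNF, ISWI, CHD, INO80/SWR1, DDM1, DRD1/CLSY, RAD54/ATRX and RAD5-like subfamilies. To these come 7 further members (MOM1, CHR8, CHR24, CHR10, CHR18, BTAF1 and CHR19). No rule on their values was used, but earlier results of these data were known. Of the 30 loci, 27 were among the 17419 loci listed as expressed in at least 1 of 2 RNA-Seq libraries of central cells, and 20 were listed in both. The libraries, CC1 and CC2, are replicates of 1 condition, wild-type Landsberg *erecta* with a mature female gametophyte, fixed 2 days after emasculation. Each was made from about 450 central cells dissected by laser from sectioned ovules and pooled, so that the replicates hold no information on single cells, and there is no other tissue or treatment to compare.

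SNF2 proteins use the energy of ATP to slide, evict or exchange nucleosomes or to strip other proteins from DNA. The subfamilies differ in what surrounds the shared ATPase: bromodomains in some SWI/SNF enzymes, chromodomains in CHD enzymes, SANT and SLIDE domains in ISWI enzymes, and a RING domain in RAD5-like enzymes. In plants, they act in development, in the exchange of the histone variant H2A.Z, in DNA methylation and in repair. The central cell lies beside the egg cell in the embryo sac, and once fertilized it forms the endosperm.

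The values are hits, which are weighted read alignments summed over the transcripts of a locus, and they are given per 1000000 listed hits of the replicate (HPM). CC1 held 15257122 listed hits on 14454 loci and CC2 held 14857500 hits on 16391 loci. A locus was listed only with at least 5 hits, which correspond to 0.328 HPM in CC1 and 0.337 HPM in CC2, and with a hit within 250 bp of the 3′ end of a transcript. An unlisted locus was therefore not measured as 0, and no fold is given against it. Of 7 central cell markers, 6 were listed in both replicates and FIE in neither, and their sum was 1573 HPM in CC1 and 1302 HPM in CC2. All 5 EC1 genes, which mark the egg cell, were also listed in both, with a sum of 1355 HPM in CC1 and 902 HPM in CC2. The synergid marker MYB98 was unlisted, 2 of 5 ovule markers summed to 14.9 and 15.5 HPM with INO, BEL1 and ANT unlisted, and 2 pollen or sperm markers summed to 6.26 and 3.70 HPM. The photosynthesis genes RBCS1A and CAB1 summed to 1686 and 1914 HPM. The part of hits from other cells in the values of the SNF2 genes was not tested, and fewer cells with a transcript cannot be told apart from less RNA per cell.

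The ATPase core was read from the RefSeq coding sequences of the assembly TAIR10.1. In 29 of the 30 members, codons for the ATP-binding (Walker A) motif were followed, 60 to 260 codons downstream, by codons for the second helicase motif (Walker B). The same combination was found in 137 of 27444 nuclear protein-coding loci (0.499%) and in 11 of 15 other loci with the SNF2 entry of the InterPro domain database. MOM1 was the member without this combination and also the member without the SNF2 entry, and no sequence is shown for it. The sequences shown here and beside the subfamilies are coding strands of 30 bases from 5′ to 3′, with the 5 codons of the ATP-binding motif in capitals. They show how alike paralogs, whose hits are compared below, are in a conserved stretch that is shorter than the 50-base reads. They and the windows compared below come from the reference assembly, not from the Landsberg *erecta* reads. For the SWI/SNF enzymes they are:
BRM: gatgagatgGGTCTTGGAAAAACTgttcag
SYD: gatgagatgGGTCTCGGGAAAACTgttcag
CHR12: gatgagatgGGTTTGGGAAAAACTattcaa
CHR23: gatgaaatgGGTTTAGGAAAGACTatccaa
They lie in exon 7 of BRM (chr2:18927222-18927251, plus strand), exon 17 of SYD (chr2:12062038-12062067, plus strand), exon 7 of CHR12 (chr3:1804896-1804925, minus strand) and exon 7 of CHR23 (chr5:6500904-6500933, plus strand). BRM and SYD differed at 2 of the 30 bases and CHR12 and CHR23 at 4. In 23 members the first codon shown encoded aspartate. In the other 6, which are DRD1, CLSY1, CLSY2, CLSY3, CLSY4 and ATRX, it encoded histidine.

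Most of the SNF2 genes were listed in the central cell libraries. The 27 members listed in at least 1 replicate were 90% of the 30, against 60.5% of 27444 nuclear protein-coding loci. The SNF2 genes are long, with transcripts of 2405 to 11033 bp, and of the 4828 protein-coding loci with transcripts in that range 77.8% were listed. The 20 members listed in both replicates were 66.7% of the 30, against 47.2% of all protein-coding loci and 61.5% of those of like length. Of the members listed at all, 74.1% were listed in both replicates, close to the 77.1% of all 17419 listed loci. CHR17 and CLSY1 were listed in CC1 only, CHR12, CLSY2, CLSY3, ATRX and RAD5A in CC2 only, and PKR2, CLSY4 and CHR8 in neither. Of all 17419 listed loci, 1028 were listed in CC1 only and 2965 in CC2 only. The paper reports that the cDNA of CC1 was slightly smaller and of lower yield than that of CC2. Among the members listed, the median was 239 hits in CC1 and 284 in CC2, while it was 291 and 228 over all listed loci.

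**Figure D1:**
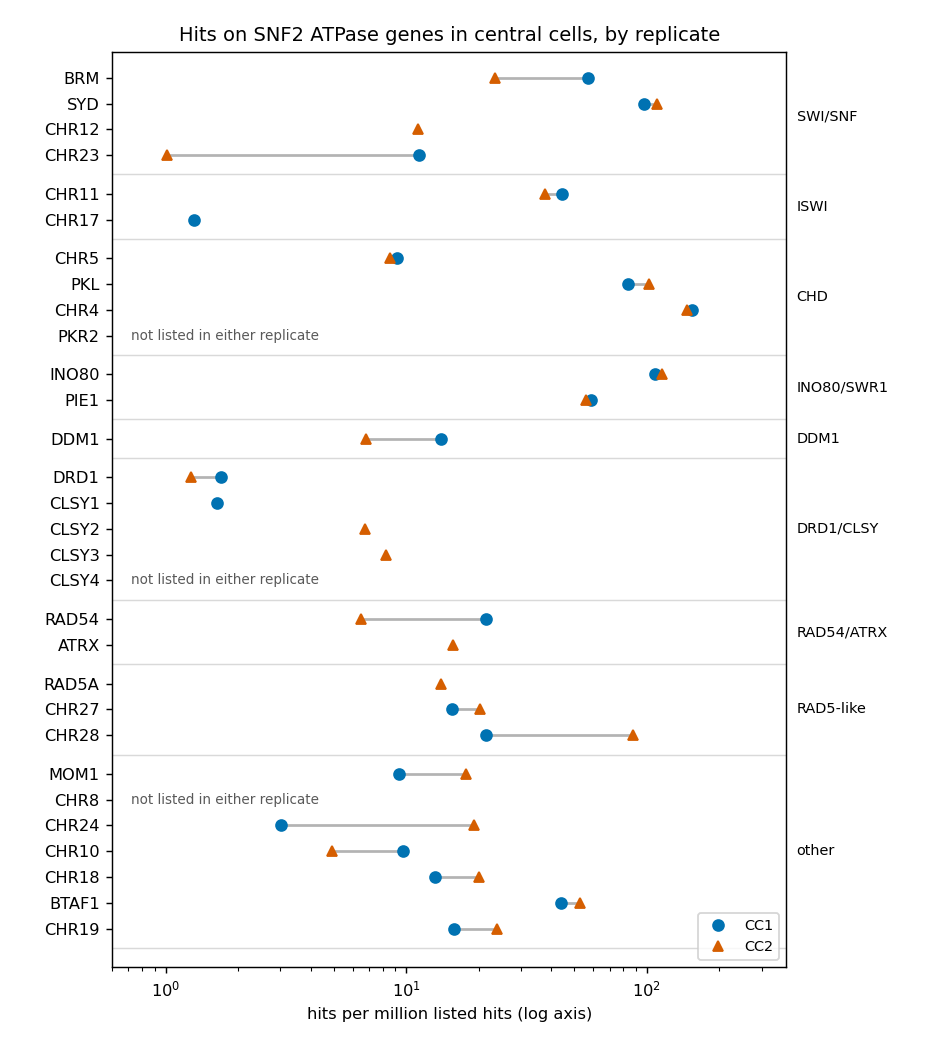
Each row is a SNF2 ATPase gene, grouped by subfamily, and the log axis gives its hits per 1000000 listed hits in CC1 (circles) and CC2 (triangles), with a line joining the replicates. CHR4, INO80, SYD and PKL lie near 100 HPM with the replicates close together, whereas CHR23, CHR24, CHR28 and RAD54 have long lines, and 3 genes were not listed in either replicate.

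Together the members took 796 HPM in CC1 and 917 HPM in CC2 (857 ± 85.6, SD, n = 2). CHR4, INO80, SYD, PKL and PIE1 held 63.1% of this sum in CC1 and 57.8% in CC2. These 5 were picked for the highest mean HPM among members listed in both replicates, so a large share follows from the choice. In CC2 alone CHR28, with 87.4 HPM, stood above PIE1, with 56.2. The CHD subfamily was the first by summed HPM, with 247 in CC1 and 257 in CC2 (252 ± 7.26). INO80/SWR1 came next with 167 and 171 (169 ± 3.22) and SWI/SNF with 166 and 146 (156 ± 14.5). The values of INO80/SWR1 and SWI/SNF were nearly the same in CC1. These sums are not scaled by length. Summed per kb of transcript, CHD had 40.9 ± 2.15 HPM per kb and INO80/SWR1 29.5 in CC1 and 30.5 in CC2. RAD5-like had 20.6 ± 16.0, SWI/SNF 17.9 ± 2.30 and ISWI 11.6 ± 1.54. In CC2 alone RAD5-like, at 31.9 per kb, passed INO80/SWR1. The 7 further members, which are no single subfamily, had 95.1 HPM in CC1 and 138 in CC2. Per kb they had 23.4 and 34.3 (28.9 ± 7.71). The RAD5-like subfamily differed between the replicates, with 36.8 HPM in CC1 and 122 HPM in CC2, or 4.63% and 13.3% of the hits of all members. DDM1, which is 1 gene, and the DRD1/CLSY subfamily had the lowest sums in both, at 14.0 and 6.80 HPM and at 3.34 and 16.3 HPM. The median of the single listed members was 15.7 HPM in CC1 and 19.1 in CC2.

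**Figure D2:**
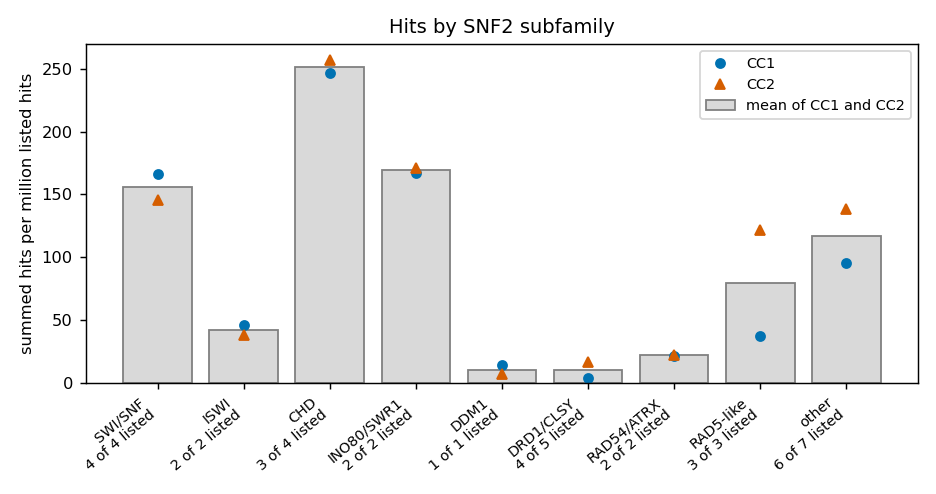
Bars give the mean summed hits per 1000000 listed hits of each SNF2 subfamily, not scaled by length, and points the sums in CC1 (circles) and CC2 (triangles). CHD, INO80/SWR1 and SWI/SNF lead in both replicates, and the RAD5-like sum was 36.8 in CC1 and 122 in CC2.

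The SWI/SNF enzymes open chromatin at regulated genes in large complexes, and BRM and SYD are the large ATPases of these complexes in plants. SYD (AT2G28290, chr2:12056213-12073279) had 1492 hits in CC1 and 1634 in CC2, or 97.8 and 110 HPM (104 ± 8.62, SD, n = 2). BRM (AT2G46020, chr2:18922533-18932055), which carries the bromodomain, had 869 and 347 hits, or 57.0 and 23.4 HPM (40.2 ± 23.8). SYD was thus stable at 1.12-fold between the replicates, and BRM was 2.44-fold higher in CC1. SYD held 63.2% of the hits of the pair in CC1 and 82.5% in CC2, and per kb of transcript, 54.1% and 76.3%. The last 37 bp of the BRM transcript overlap the gene UBC6 on the opposite strand, which had 71 hits in CC1 and 145 in CC2. The library was not stranded, and the share of the BRM hits from this overlap was not tested.

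CHR12 and CHR23, the MINU group, are the short ATPases of the SWI/SNF subfamily and share functions in the maintenance of meristems. CHR23 (AT5G19310, chr5:6498743-6503692) had 172 hits in CC1 and 15 in CC2, or 11.3 and 1.01 HPM. CHR12 (AT3G06010, chr3:1802141-1807530) was unlisted in CC1 and had 167 hits in CC2, or 11.2 HPM. The pair therefore took a similar number of listed hits in either replicate, but on CHR23 in CC1 and, for 91.8% of them, on CHR12 in CC2. Hits on CHR12 in CC1, if any, are not in this number. The proteins are identical at 79.3% of aligned residues. Their transcripts shared no window of 50 bases, the length of the reads. The longest identical run was 43 bases, and 28 of the 3800 windows of CHR12 (0.737%) came within 2 mismatches of CHR23. Whether hits were assigned to the wrong gene of the pair was not tested.

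The ISWI enzymes space nucleosomes, and CHR11 and CHR17 are near-duplicates that act redundantly. In the female gametophyte, CHR11 is known to be needed for the nuclear divisions. The codons of the ATP-binding motif are shown since they are the same in both genes:
CHR11: gatgaaatgGGTCTGGGGAAGACGcttcaa
CHR17: gatgaaatgGGTCTGGGGAAGACGcttcaa
Both runs are joined across an intron, within chr3:1942321-1942440 on the plus strand and chr5:6200609-6200730 on the minus strand. CHR11 (AT3G06400, chr3:1940907-1946980) had 679 hits in CC1 and 563 in CC2, or 44.5 and 37.9 HPM (41.2 ± 4.67). CHR17 (AT5G18620, chr5:6195689-6202168) had 20 hits in CC1, or 1.31 HPM, and was unlisted in CC2. CHR11 thus held 97.1% of the hits of the pair in CC1 and all listed hits in CC2. The proteins are identical at 93.2% of aligned residues, yet no 50-base window was shared, and 281 of 3772 windows of CHR17 (7.45%) came within 2 mismatches of CHR11. The 3′ end of CHR17 overlaps AT5G18610 on the opposite strand by 65 bp. AT5G18610 had 682 hits in CC1 and 554 in CC2, far more than CHR17, so that the 20 hits of CHR17 are uncertain.

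The CHD enzymes carry chromodomains, which bind methylated histone tails. PKL represses embryonic genes in seedlings and is linked to the histone mark H3K27me3, PKR2 is its close relative, CHR4 (PKR1) shares its chromodomain and PHD finger, and CHR5 is the relative of CHD1 of yeast. The motif codons of PKL, PKR2 and CHR4 are shown because 2 of these 3 were high and the other unlisted:
PKL: gatgaaatgGGACTAGGCAAGACAattcaa
PKR2: gatgaaatgGGACTAGGCAAAACTattcag
CHR4: gatgagatgGGGCTTGGAAAAACTgtgtct
They lie within chr2:10715947-10716083 (plus strand, across an intron), within chr4:15432753-15432877 (plus strand, across an intron) and at chr5:18089038-18089067 (minus strand). PKL and PKR2 differed at 3 of 30 bases, and CHR4 and PKL at 11. CHR4 (AT5G44800, chr5:18083277-18093907) had 2353 hits in CC1 and 2177 in CC2, or 154 and 147 HPM (150.4 ± 5.44). It had more HPM than 92.9% of the listed loci of CC1 and 93.7% of those of CC2, but per kb of its 7892 bp transcript more than 64.6% and 68.7%. PKL (AT2G25170, chr2:10713807-10724106) had 1271 and 1514 hits, or 83.3 and 102 HPM (92.6 ± 13.1). CHR4 led PKL in hits, and the order turned with length, with 19.1 ± 0.69 HPM per kb for CHR4 and 20.5 ± 2.91 for PKL. Their ranges over the replicates overlapped per kb. CHR5 (AT2G13370, chr2:5544054-5556560) was low and even, with 140 and 127 hits, or 9.18 and 8.55 HPM (8.86 ± 0.44). PKR2 (AT4G31900, chr4:15431350-15438678) was unlisted. It is identical to PKL at 64.8% of aligned residues, and only 1 of its 3721 windows of 50 bases came within 2 mismatches of PKL.

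INO80 and PIE1 belong to complexes that move or exchange H2A.Z, with PIE1 as the ATPase of the SWR1 complex that deposits it. INO80 (AT3G57300, chr3:21199150-21207893) had 1652 hits in CC1 and 1711 in CC2, or 108 and 115 HPM (112 ± 4.85). PIE1 (AT3G12810, chr3:4065042-4074194) had 892 and 834 hits, or 58.5 and 56.2 HPM (57.3 ± 1.63). Both genes were within 1.07-fold between the replicates. The 3′ end of PIE1 overlaps MYB10 on the opposite strand by 340 bp, and 4.21% of the 50-base windows of PIE1 are found in MYB10. MYB10 had 1741 hits in CC1 and 708 in CC2, after ambiguous hits were divided among the loci. The cDNA was biased to the 3′ end, so the share of windows is not the share of hits. The share of the PIE1 hits that came from this overlap was not tested. At its 5′ end INO80 overlaps EIF3E by 66 bp, with 2167 hits in CC1 and 2437 in CC2 on that gene.

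DDM1 keeps DNA methylation in heterochromatin, where it gives methyltransferases access to nucleosomes with linker histone. DDM1 (AT5G66750, chr5:26648897-26653191) had 213 hits in CC1 and 101 in CC2, or 14.0 and 6.80 HPM (10.4 ± 5.06), a difference of 2.05-fold. MOM1 (AT1G08060, chr1:2501704-2511084) silences transposons without the loss of DNA methylation and holds only a remnant of the ATPase domain. It had 142 and 263 hits, or 9.31 and 17.7 HPM (13.5 ± 5.94). DDM1 was thus higher in CC1 and MOM1 was higher in CC2, the latter by 1.90-fold.

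The DRD1/CLSY subfamily is specific to plants and serves RNA-directed DNA methylation. The CLSY proteins recruit RNA polymerase IV to its target sites, and DRD1 acts with RNA polymerase V in the DDR complex. Their motif codons are shown since they part from those of most other members in the bases before the capitals:
DRD1: catgctccaGGCTCTGGAAAAACCttcatg
CLSY1: catactcccGGAGCAGGAAAAACAtttcta
CLSY2: cattcacctGGAGCTGGTAAAACAttccta
CLSY3: catgctcccGGGACCGGAAAAACTcgtctg
CLSY4: cataaggctGGAACTGGTAAGACAcgtttg
The positions are chr2:7099558-7099587 on the plus strand for DRD1 and, on the minus strand, chr3:14757514-14757543 for CLSY1, chr5:6900623-6900652 for CLSY2, chr1:1620412-1620441 for CLSY3 and chr3:8833609-8833638 for CLSY4. CLSY1 and CLSY2 differed at 6 of 30 bases and CLSY3 and CLSY4 at 11. DRD1 (AT2G16390, chr2:7097280-7101351) had 26 hits in CC1 and 19 in CC2, or 1.70 and 1.28 HPM (1.49 ± 0.30), the lowest level per kb of the 20 members listed in both. CLSY1 (AT3G42670, chr3:14755798-14760629) had 25 hits in CC1, or 1.64 HPM, and was unlisted in CC2. CLSY2 (AT5G20420, chr5:6898790-6904242) was unlisted in CC1 and had 100 hits in CC2, or 6.73 HPM. CLSY3 (AT1G05490, chr1:1618504-1623489) was likewise listed in CC2 only, with 123 hits or 8.28 HPM. No CLSY gene was thus listed in both replicates, and CLSY4 (AT3G24340, chr3:8831935-8835829) was listed in neither. CLSY1 and CLSY2 are identical at 75.7% of aligned residues, but their longest identical run of bases was 35, shorter than a read.

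RAD54 drives strand exchange in homologous recombination, and ATRX deposits the histone variant H3.3. RAD54 (AT3G19210, chr3:6652695-6658988) had 327 hits in CC1 and 96 in CC2, or 21.4 and 6.46 HPM (13.9 ± 10.6), a difference of 3.32-fold. ATRX (AT1G08600, chr1:2723677-2733613) was unlisted in CC1 and had 233 hits in CC2, or 15.7 HPM. The listed hits of both summed to 21.4 HPM in CC1, which is RAD54 alone, and to 22.1 HPM in CC2. The level of ATRX in CC1 was not measured, so these sums do not show whether the 2 genes together were level. ATRX overlaps AT1G08610 on the opposite strand by 18 bp at its 3′ end, with 185 hits on AT1G08610 in CC1 and 8 in CC2.

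The RAD5-like members have a RING domain of ubiquitin ligases. RAD5A acts in the tolerance of DNA damage, and CHR27 and CHR28 (also named FRG1 and FRG2) act in transcriptional silencing. The motif codons of this last pair are:
CHR27: gatgatcagGGACTTGGTAAGACGgtctcg
CHR28: gatgatcagGGCCTTGGTAAGACAgtctcg
Both are joined across an intron, within chr3:6972983-6973110 and chr1:18674235-18674349 on the plus strand, and differed at 2 of 30 bases. They are shown because CHR28 differed strongly between the replicates and CHR27 less. CHR28 (AT1G50410, chr1:18672132-18677652) had 326 hits in CC1 and 1299 in CC2, or 21.4 and 87.4 HPM (54.4 ± 46.7), a difference of 4.09-fold. CHR27 (AT3G20010, chr3:6970683-6976691) had 236 and 300 hits, or 15.5 and 20.2 HPM (17.8 ± 3.34), a difference of 1.31-fold. CHR28 held 58.0% of the hits of the pair in CC1 and 81.2% in CC2. The pair shared no window of 50 bases, and 46 of 3686 windows of CHR28 (1.25%) came within 2 mismatches of CHR27. RAD5A (AT5G22750, chr5:7565037-7571109) was unlisted in CC1 and had 208 hits in CC2, or 14.0 HPM.

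The remaining members serve transcription and repair. BTAF1 (RGD3, AT3G54280, chr3:20091852-20104257), the relative of yeast Mot1 that removes the TATA-binding protein from DNA, had 673 hits in CC1 and 786 in CC2, or 44.1 and 52.9 HPM (48.5 ± 6.22). CHR19 (ETL1, AT2G02090, chr2:523223-527068), the relative of human SMARCAD1, had 242 and 353 hits, or 15.9 and 23.8 HPM (19.8 ± 5.58). CHR18 (AT1G48310, chr1:17848421-17853915), related to the annealing helicase SMARCAL1, had 201 and 298 hits, or 13.2 and 20.03 HPM (16.6 ± 4.86). These 3 were higher in CC2 by 1.199-fold, 1.498-fold and 1.523-fold. CHR10 (ASG3, AT2G44980, chr2:18552173-18556674), related to human ALC1, went the other way, with 148 and 73 hits, or 9.70 and 4.91 HPM (7.31 ± 3.38). CHR8 (AT2G18760, chr2:8128706-8134401) and CHR24 (AT5G63950, chr5:25591956-25598671) resemble CSB, the human ATPase of transcription-coupled repair. CHR8 was unlisted. CHR24 had 46 hits in CC1 and 284 in CC2, or 3.01 and 19.1 HPM (11.1 ± 11.4), a difference of 6.34-fold.

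To compare the genes with each other, HPM were divided by the length of the longest annotated transcript. INO80 came first of the 20 members listed in both replicates, with 21.8 ± 0.95 HPM per kb (SD, n = 2), before PKL with 20.5 ± 2.91 and CHR4 with 19.1 ± 0.69. The ranges of INO80 and PKL, and of PKL and CHR4, overlapped over the replicates, so that the place of PKL is not resolved. INO80, with 21.1 in CC1 and 22.4 in CC2, lay above CHR4, with 19.5 and 18.6, in both replicates. CHR28 followed with 14.6 ± 12.5 HPM per kb, from 5.72 in CC1 to 23.4 in CC2. It overlapped with CHR4 before it and with CHR11 (11.4 ± 1.29) after it. Of the 19 steps in the order, 16 lay between genes whose replicates overlapped. The exceptions were CHR11 above SYD (9.42 ± 0.78), SYD above PIE1 (8.23 ± 0.23), and CHR5 (1.35 ± 0.07) above DRD1 (0.48 ± 0.10). BRM was eleventh, with 5.31 ± 3.14 HPM per kb, DDM1 fourteenth with 3.75 ± 1.83, and CHR23 eighteenth with 1.70 ± 2.01. The cDNA was short and biased to the 3′ end. With no length scaling, 9 of the first 10 genes remained among the first 10 and CHR4 came before INO80. A cap on the length at 1500 bp gave this same order, since all members are longer.

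**Figure D3:**
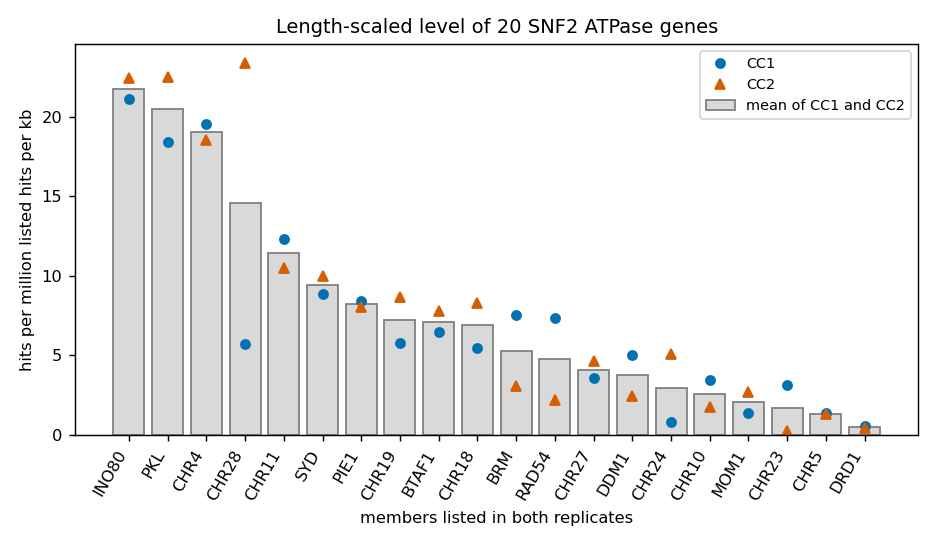
Bars give the mean hits per 1000000 listed hits per kb of the 20 SNF2 genes listed in both replicates, in falling order, and points the values in CC1 (circles) and CC2 (triangles). INO80, PKL and CHR4 stand at 19.1 to 21.8, CHR28 spans 5.72 to 23.4, and DRD1 is last at 0.48.

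Between the replicates, 6 of the 20 members listed in both (30%) were more than 2-fold apart, as were 30.2% of all 13426 loci listed in both. CHR28 and CHR24 were higher in CC2, and 14.7% of all loci were so. BRM, CHR23, DDM1 and RAD54 were higher in CC1, against 15.5% of all loci. With TMM scaling of the libraries this division of 2 and 4 became 3 and 3, as DDM1 fell just below 2-fold and MOM1 just above it. The median fold between the replicates was 1.41 for the members and 1.505 for all loci. The share past 2-fold and the median fold of the members were thus near those of all loci, where the numbers of hits were not matched.

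The members were also set beside loci with as many hits. Of the 5 members with at least 1000 hits in the higher replicate, CHR4, INO80, SYD, PKL and CHR28, the first 4 were at most 1.22-fold apart. CHR28 was more than 2-fold apart, and of all listed loci with as many hits, 8.03% were. Among the 13 members with 200 to fewer than 1000 hits, 11 were listed in both replicates (84.6%), and of all such loci 96.7% were. ATRX and RAD5A were the 2 that were missing from CC1. Of the 11, 4 were more than 2-fold apart (36.4%), against 31.8% of all loci in this range. Among the 6 members with 50 to fewer than 200 hits, 3 were listed in both, against 66.7% of all such loci. CHR12, CLSY2 and CLSY3 were listed in CC2 only. The 3 members below 50 hits were CHR17, CLSY1 and DRD1, of which DRD1 was listed in both. Of all loci below 50 hits 23.4% were.

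**Figure D4:**
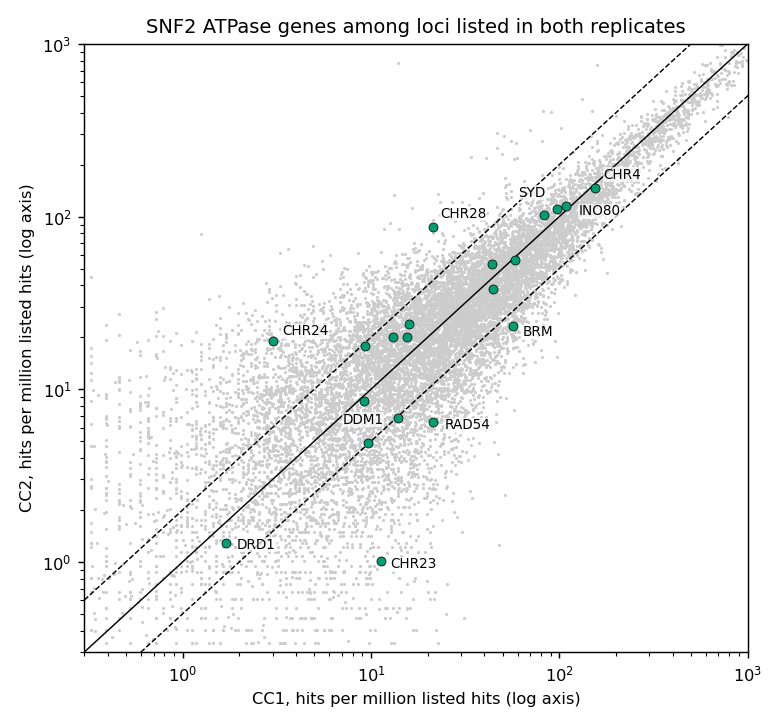
Each grey point is a locus listed in both replicates, with its hits per 1000000 listed hits in CC1 and CC2 on log axes cut at 1000, and green points are the 20 SNF2 genes. The solid line marks equal values and the dashed lines 2-fold, outside of which CHR28 and CHR24 lie on the side of CC2 and BRM, CHR23, DDM1 and RAD54 on that of CC1.

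The ATPases work with partner subunits, and 52 partners in 5 lists were looked up. In at least 1 replicate 48 were listed (41 in both), where 60.5% of nuclear protein-coding loci were listed and 47.2% in both. More than 2-fold apart were 9 of the 41, against 30.2% of all loci listed in both. All 13 SWI/SNF partners were listed, 11 of them in both. Among those in both, the highest mean HPM were those of the actin-related protein gene ARP4 (41.6 ± 19.5 HPM, 24.1 ± 11.3 per kb), the core subunit gene SWI3C (35.9 ± 14.4 HPM, 13.0 ± 5.20 per kb) and LFR (19.4 ± 5.04 HPM, 11.7 ± 3.03 per kb). Of the 11, 2 were more than 2-fold apart. ARP7 had 689 hits or 45.2 HPM in CC1, more than any other partner of this list in that library, and was unlisted in CC2, and BRD13 had 51 in CC2 only. SWI3A had 7 hits in CC1 and 169 in CC2. These 3 were named after their values were seen.

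Of 12 partners of SWR1 and INO80, 11 were listed and 10 of them in both, with 1 past 2-fold. Of nuclear protein-coding loci, 60.5% were listed and 47.2% in both, and 30.2% of all loci listed in both were past 2-fold. RIN1, a RuvB-like helicase, led with 62.4 ± 9.30 HPM, or 34.4 ± 5.12 per kb. It was followed by ARP6 (44.3 ± 13.5 HPM, 29.3 ± 8.92 per kb), a subunit of SWR1, and SWC2 (39.9 ± 2.77 HPM, 21.9 ± 1.52 per kb). RVB2B was unlisted. All 5 ISWI partners were listed in both replicates and none was past 2-fold, against the same shares of all loci. The DDT-domain gene RLT2 led with 112 ± 27.5 HPM, or 18.4 ± 4.51 per kb, before ARID5 (38.9 ± 3.78 HPM, 13.2 ± 1.28 per kb) and RLT1 (29.5 ± 10.8 HPM, 5.04 ± 1.84 per kb).

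In RNA-directed DNA methylation, 11 of 13 further genes were listed, 8 of them in both, against 60.5% and 47.2% of nuclear protein-coding loci. NRPD1, the largest subunit of RNA polymerase IV, was unlisted, as was SUVH9. RDM1, the small partner of DRD1 in the DDR complex, had 26.5 HPM in CC1 and 97.2 HPM in CC2 (61.9 ± 49.95 HPM, 22.3 ± 18.0 per kb). SUVH2, which binds methylated DNA and recruits RNA polymerase V, had 36.1 ± 7.72 HPM, or 14.5 ± 3.10 per kb. NRPE1, the largest subunit of RNA polymerase V, had 29.98 ± 14.0 HPM, or 4.60 ± 2.15 per kb. NRPD2, the subunit shared by both polymerases, had 80.5 hits in CC1 and was unlisted in CC2, and RDR2, which works with RNA polymerase IV, had 40 hits in CC2 and was unlisted in CC1. NRPD2 and RDR2 were named after their values were seen. Past 2-fold were 4 of the 8 genes, against 30.2% of all loci.

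Of 9 repair and histone chaperone genes linked to RAD5A, ATRX and the CSB-like ATPases, 8 were listed and 7 of them in both. Past 2-fold were 2 of the 7, against 30.2% of all loci listed in both. Of nuclear protein-coding loci, 60.5% were listed and 47.2% in both. The ubiquitin-conjugating enzyme variant genes UEV1C (147 ± 5.43 HPM, 144 ± 5.32 per kb) and UEV1D (88.2 ± 23.5 HPM, 93.5 ± 24.9 per kb) and the ubiquitin-conjugating enzyme gene UBC35 (60.6 ± 17.2 HPM, 49.1 ± 13.9 per kb) led. UEV1B was unlisted. ATCSA-1, the relative of human CSA, which acts with CSB, had 727 hits in CC2 and was unlisted in CC1. The CSA-like gene AT1G19750 had 14 hits in CC1 and 6.07 in CC2. ATCSA-1 and this CSA-like gene were named after their values were seen.

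The annotation holds 15 other loci with the SNF2 entry. In CC1 or CC2, 10 of them were listed, 9 in both, and 5 of the 9 were more than 2-fold apart, where 60.5% of protein-coding loci were listed and 30.2% of loci in both were so far apart. The most HPM were on AT3G54460, with 9.30 in CC1 and 44.4 in CC2 (26.9 ± 24.8, or 6.12 ± 5.66 per kb), SWI2 (AT1G03750) with 9.57 ± 0.45 (3.45 ± 0.16 per kb) and EDA16 (AT1G61140) with 9.36 ± 1.99 (2.06 ± 0.44 per kb). The medians of these loci, 1.97 HPM per kb in CC1 and 1.75 in CC2, lay below those of the listed members, 5.59 and 3.82, again over the listed loci. Protein-coding loci as long as the members had medians of 5.50 and 4.45 HPM per kb.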

How the data were processed

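RNA of laser-dissected central cells was reverse transcribed from poly(T) primers, amplified and sequenced as 50-base SOLiD reads. The authors corrected the reads, aligned them with TopHat 1.2 to TAIR10 with up to 10 alignments per read, weighted the alignments by unique reads nearby, and divided ambiguous hits among loci in proportion to the unambiguous. The deposited values are thus expected counts (estimated counts of hits), neither normalized nor scaled by length, and 24.4% (CC1) and 25.0% (CC2) were not exact whole numbers (tolerance 0). Precision is limited by the 2 replicates, and amplified reads are not independent molecules.

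HPM were computed over the listed hits, and an unlisted locus entered sums as 0. The longest transcripts, domains and sequences were taken from RefSeq TAIR10.1. With 1 condition, no test was made. All 30 members are named, as are the 3 partners or other SNF2 loci with the highest mean HPM of each list among those listed in both replicates and every unlisted partner, apart from genes said to be chosen after their values were seen. Members and lists were chosen with earlier results of these data known, and 1 partner gene is not reported here. Alternatives were other hit minimums, folds, totals and lengths, a thinned library, single replicates, TMM (edgeR 4.0.16) and DESeq2 1.42.0 size factors, which were tested on simulated data. Python 3.11.15, numpy 2.4.6, pandas 2.3.3, Biopython 1.88 and R 4.3.3 were used.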

Additional observations from a re-analysis of the deposited data

How the results depend on the processing

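With the 100 most abundant loci left out of the total, which raises every HPM by construction, the members summed to 1250 HPM, SWI/SNF to 227, ISWI to 60.9, CHD to 367, INO80/SWR1 to 246, RAD54/ATRX to 31.8 and the other members to 171. Per kb, the order of CHR4 and PKL turned: the mean share of CHR4 in the hits of CHR4 and PKL was 48.3% and that of PKL 51.7%, against 62.0% and 38.0% of the hits. The number of members past 2-fold was 6 with TMM, 5 with DESeq2 size factors, 4 of 17 with at least 50 hits in both (21.8% of all such loci) and 9 at 1.5-fold (50.2% of all loci). With a minimum of 50 hits, 24 members were listed in at least 1 replicate and 17 in both. Of all 17419 listed loci, 2936 had fewer than 50 hits in the higher replicate. At least 50 hits in both were found for 11108 of the 13426 loci listed in both. By CC2 alone CHR28 came first per kb, and without length scaling or with a capped length CHR4. With 2 replicates, leaving 1 out cannot move a mean by more than the SD, so that single replicates are no check of the sums and shares. No paired analysis was possible because there is 1 condition, with no groups to pair. The short, 3′-biased and unstranded cDNA limits levels of long and overlapping genes, and members below 50 hits were too shallow for their absence from a replicate to be read as a difference.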
